A study of Mus musculus with 24 samples.

Results

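Quadriceps muscle of male and female mice kept on a Low BCAA diet was compared gene by gene, outside the sex chromosomes. The mice had eaten this diet since weaning and were 16 months old. It is a food with less of the branched-chain amino acids, which are leucine, isoleucine and valine. The comparison uses 6 libraries labelled Low BCAA, Male and 6 labelled Low BCAA, Female, which are 12 of the 24 libraries in the series, and the other 12 come from mice of both sexes on the Control diet. All 4 groups shared the tissue, the age, the overnight fast and TRI Reagent extraction of total RNA. The labels give no strain, no cage and no body weight. They number the libraries but do not say that each comes from its own mouse, and the p-values then reflect only how far these libraries differ, which may be technical. Genes were kept when the annotation placed them on 1 of the 19 autosomes: 47415 of the 51912 gene identifiers in the table, of which 17493 had enough counts to be tested.

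Muscle of male and female mammals differs in mass, fibre size and fuel use. Androgens acting through the androgen receptor of the fibre raise the enzymes of polyamine synthesis in rodents, and polyamines (putrescine, spermidine and spermine) are small cations needed for growth. In the liver, the sexes differ through the pulse pattern of growth hormone, which sets male and female programmes of urinary proteins, cytochromes P450 and sulfotransferases. Those liver genes matter here because transcripts of liver were found in several of these muscle libraries.

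The 14 marker genes of skeletal muscle fibres together took 109426 to 205574 CPM (counts scaled to a common library size, with TMM factors throughout) in the males and 157339 to 224044 CPM in the females, and none was at 0 across a sex. Library totals lay between 32991672 and 43804992 counts. The Y-linked gene Ddx3y was at 69.9 to 111 CPM in the males and at no more than 0.220 CPM in the females. The female library with replicate number 4 stood apart. Its count of Xist, the RNA that coats the inactive X chromosome, was 3.00, or 0.0776 CPM, while the other 5 female libraries held 330.1 to 400.2 CPM. Its Ddx3y count was 1.00. Kdm5c, an X-linked gene that escapes inactivation, was at 28.9 CPM there, against 48.9 to 64.6 CPM in the other females and 29.3 to 33.6 CPM in the males. Eif2s3x, which also escapes, was at 58.9 CPM there, against 94.9 to 116 CPM in the other females and 54.7 to 70.6 CPM in the males. So this library, labelled female, had male-like levels of these X-linked genes and almost no Y-linked RNA. Results are given with it and, where it matters, without it. The females also split in some stress and clock genes, such as Trim63, which was at 2019 to 2411 CPM in libraries 1 to 3 and at 87.2 to 145 CPM in libraries 4 to 6.

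The description labels hold a number as well as a letter. That number is 3 in all 6 Low BCAA males and 2 or 1 in the females. The labels do not say what the number stands for, and among these 12 libraries no number holds both sexes, so number and sex cannot be told apart.

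Of the autosomal genes tested, 80 were higher in males (0.457%) and 39 were higher in females (0.223%) at an adjusted p under 0.05 (edgeR quasi-likelihood test, Benjamini-Hochberg adjustment over all 18098 genes tested). An unadjusted p under 0.05 was reached by 1973 autosomal genes. The median log2 fold change, male minus female, over all autosomal genes was -0.018, and 46.2% of them lay above 0. Among the 80 genes higher in males, changes ran from 0.35 to 9.05 on the log2 scale with a median of 1.54. The 39 genes higher in females had a median of -1.21, and the largest difference among them was 2.29 in size. For 35 of the 80 and 19 of the 39, no male library overlapped any female library. Over all autosomal genes, the 6 male values lay wholly above the 6 female values for 55 (0.314%) and wholly below them for 54 (0.309%).

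**Figure D1:**
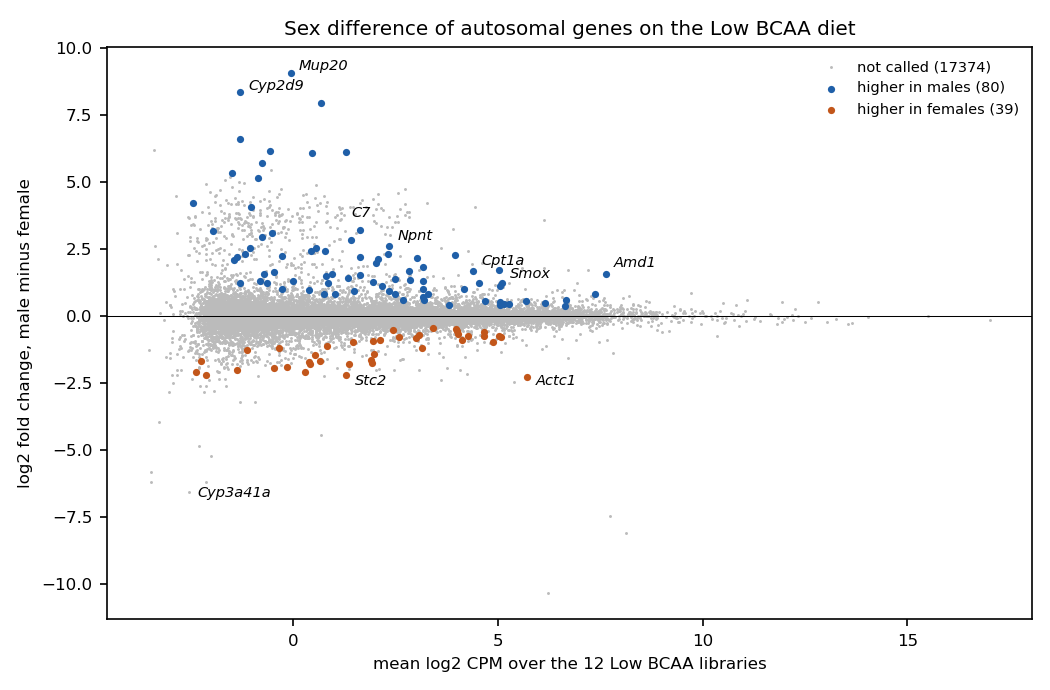
Each point is 1 autosomal gene, placed by its mean log2 CPM over the 12 Low BCAA libraries (horizontal) and its log2 fold change, male minus female (vertical); blue points are the 80 genes called higher in males and orange points the 39 called higher in females. The called genes with the largest folds, such as Mup20 at 9.05, are liver genes toward the left, while Amd1 lies farthest right of the called genes.

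These counts rested on single libraries. Leaving out 1 library at a time gave 35 to 183 genes higher in males and 13 to 69 higher in females. The male count moved by more than 1.5 times without male library 4 (35 genes), 5 (183) or 6 (174), or without female library 2 (48), 3 (53), 5 (42) or 6 (37). The female count did so without male library 1 (18), 2 (13), 3 (25) or 4 (17), or without female library 1 (69), 2 (19), 5 (14) or 6 (16). Without female library 4, which lacks Xist, 62 genes were higher in males, 51 of them among the 80, and 32 were higher in females, 24 of them among the 39. All 119 genes kept their direction without that library.

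The smallest p-values belonged to genes higher in males that have varied roles. Npnt encodes nephronectin, a matrix protein that binds integrins. Its level in the 6 males had a lowest value of 9.52, a median of 12.6 and a highest of 16.9 CPM, and in the 6 females 1.19, 2.03 and 3.43 CPM. Every male library was above every female library, and the log2 fold change was 2.61 ± 0.263 (SE; edgeR adjusted p = 3.36e-06), a fold of 6.09. Slc30a2 encodes a zinc transporter that moves zinc out of the cytosol. It was at 4.66, 7.78 and 9.40 CPM in males (lowest, median, highest) and 0.530, 1.02 and 1.67 CPM in females. The groups did not overlap, with a log2 fold change of 2.82 ± 0.324 (edgeR adjusted p = 2.51e-05).

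C7, a complement protein of the membrane attack complex, was at 8.11, 9.93 and 11.9 CPM in males and 0.318, 0.914 and 2.43 CPM in females. Its log2 fold change was 3.18 ± 0.394 (edgeR adjusted p = 7.57e-05), with the groups apart. Pde11a, a phosphodiesterase that breaks down cyclic nucleotides, was scarce in both sexes, at 0.672 to 1.23 CPM in males and 0.0776 to 0.307 CPM in females. It differed by 2.28 ± 0.304 on the log2 scale (edgeR adjusted p = 0.000225). Tmem132b was at 15.6 to 28.6 CPM in males and 0.725 to 7.40 CPM in females, again without overlap. Its log2 fold change was 2.16 ± 0.364 (edgeR adjusted p = 0.00424).

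Polyamine metabolism held 3 of the genes higher in males. Amd1 encodes S-adenosylmethionine decarboxylase, which supplies the aminopropyl groups of spermidine and spermine. Its level was 256, 348 and 445 CPM in males and 58.4, 119 and 162 CPM in females. The groups were apart, and the log2 fold change was 1.55 ± 0.217 (edgeR adjusted p = 0.000403), a fold of 2.92. Smox, spermine oxidase, which turns spermine back to spermidine, was at 43.5, 53.5 and 63.9 CPM in males and 12.8, 23.8 and 34.2 CPM in females. It differed by 1.20 ± 0.219 on the log2 scale (edgeR adjusted p = 0.00855), with no overlap. Odc1, ornithine decarboxylase, the entry enzyme of the pathway, did not pass the test. Males were at 77.3, 158 and 219.9 CPM and females at 26.7, 69.3 and 152 CPM, with overlap. The log2 difference was 0.94 ± 0.366 (edgeR adjusted p = 0.269). Odc1 was at 97.5, 152 and 147 CPM in female libraries 1 to 3. In female libraries 4 to 6 it was at 26.7, 41.2 and 30.3 CPM, below every male. This split of the females was seen in the values and was not tested. Of the 12 genes of the androgen and polyamine list tested, 3 were higher in males (Amd1, Smox and Amd2) and none in females, and the list's median was 0.38 beside -0.018 for all autosomal genes. Without the 3 male libraries and 1 Control female library that held over 500 CPM of albumin, a liver transcript described further on, the median was 0.13 and Amd1 alone was called, and with the hepatocyte level as a covariate the median was 0.22.

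Amd2 is a near copy of Amd1, so the share of reads given to each is uncertain. Of the 50-base stretches in the annotated Amd2 transcripts, 85.7% also occur in Amd1 transcripts, and of those in the pseudogene Amd-ps3, 94.8% do. Amd2 was at 4.91 to 7.57 CPM in males and 1.39 to 3.91 CPM in females, and its log2 fold change was 1.27 ± 0.302 (edgeR adjusted p = 0.0468). Cdk19, a kinase of the Mediator complex, is the next tested gene to Amd1 on chromosome 10 in the annotation. It was at 22.5, 25.5 and 28.0 CPM in males and 10.3, 12.9 and 15.4 CPM in females, apart in every library, with a log2 fold change of 0.99 ± 0.106 (edgeR adjusted p = 9.14e-06).

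Other neighbours were called together, and they were singled out after their values were seen. In 14 pairs of called genes, made of 21 genes, at most 1 other tested gene lay between the pair. How many such pairs arise among other tested genes was not counted. On chromosome 8 they included Hpgd, which breaks down prostaglandins, with Gm8734, 9330121K16Rik and A230085B16Rik, all higher in males by 1.53 to 2.42 on the log2 scale. Hpgd was at 0.50 on the Control diet and at 0.80 without the albumin-rich libraries, and was called in neither. Gm8734, 9330121K16Rik and A230085B16Rik were at 2.43, 2.55 and 2.29 on Control, and at 2.67, 2.71 and 2.40 without those libraries. On chromosome 10, Socs2 and the noncoding 2310039L15Rik next to it were both higher in females, by log2 changes of -1.21 and -1.95. The files do not state whether counting used strand, so overlapping or antisense transcripts in such places may share reads.

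The bases before the annotated start are shown for 4 of the genes above, so that the regions can be read beside the levels: Amd1 and Smox from the polyamine list, and Npnt and C7 as 2 of the largest differences. The sequences are from RefSeq on GRCm38.p6, 250 bases each, written 5′ to 3′ on the gene's strand. They lie at chr10:40302189-40302438 (minus strand) for Amd1, chr2:131491612-131491861 (plus) for Smox, chr3:132950292-132950541 (minus) for Npnt, where 2 starts are listed and the first is shown, and chr15:5063774-5064023 (minus) for C7. Capitals mark matches, on either strand, to 5 motifs: AGAACA (the core bound by androgen and glucocorticoid receptors), TTCNNNGAA (the STAT5 motif, read by growth hormone signalling), CAGCTG (an E-box used by myogenic factors), GGGCGG (the GC box) and TATAAA (the TATA box).
Amd1: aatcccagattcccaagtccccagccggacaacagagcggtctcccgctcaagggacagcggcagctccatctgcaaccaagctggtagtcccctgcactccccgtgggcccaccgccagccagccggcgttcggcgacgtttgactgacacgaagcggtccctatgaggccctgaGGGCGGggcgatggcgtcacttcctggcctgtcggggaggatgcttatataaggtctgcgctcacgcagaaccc
Smox: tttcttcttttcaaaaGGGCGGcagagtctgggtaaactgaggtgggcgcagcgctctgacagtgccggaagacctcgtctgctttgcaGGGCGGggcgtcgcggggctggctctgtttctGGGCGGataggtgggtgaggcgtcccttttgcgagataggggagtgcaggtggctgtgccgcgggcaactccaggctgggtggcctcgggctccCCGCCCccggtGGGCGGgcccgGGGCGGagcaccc
Npnt: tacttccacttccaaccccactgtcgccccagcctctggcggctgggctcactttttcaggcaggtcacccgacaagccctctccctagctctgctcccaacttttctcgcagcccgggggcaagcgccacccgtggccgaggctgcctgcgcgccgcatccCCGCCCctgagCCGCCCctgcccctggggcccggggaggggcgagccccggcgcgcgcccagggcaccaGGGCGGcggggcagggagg
C7: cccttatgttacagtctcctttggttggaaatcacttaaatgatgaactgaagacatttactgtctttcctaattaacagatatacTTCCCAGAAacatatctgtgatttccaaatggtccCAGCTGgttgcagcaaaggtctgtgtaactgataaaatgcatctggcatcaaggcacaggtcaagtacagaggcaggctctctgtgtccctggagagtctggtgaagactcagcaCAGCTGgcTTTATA
Amd1, Smox and Npnt hold 1, 6 and 3 GC boxes in a GC-rich window (64.4%, 68.0% and 74.0% G or C), and C7, at 43.2%, holds none but has the STAT5 motif, 2 E-boxes and 1 TATAAA match. No matches overlap in these 4 windows. The same search was made for 12 leading genes (Npnt, Slc30a2, C7, Pde11a, Amd1 and Smox, and Grb10, Sdk1, Pclo, Neu2, Actc1 and Stc2). None had AGAACA in the window, against 16.2% of 27025 genes in the RefSeq table. The GC box was in 8 of the 12 windows and in 32.9% of all. The 12 were picked among genes with enough counts in muscle, while the RefSeq table also holds genes that were not tested. These shares are therefore not like for like and show no trait of genes that differ by sex. A match is a description of letters, and a missing match says only that the letters are not in these 250 bases.

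Genes higher in females included Grb10, Stc2 and Socs2, which act in growth factor and growth hormone signalling. Grb10, an adaptor that inhibits insulin and insulin-like growth factor receptors, was at 22.6, 25.8 and 29.0 CPM in males and 33.3, 44.1 and 55.3 CPM in females. The groups were apart, and the log2 fold change was -0.80 ± 0.142 (edgeR adjusted p = 0.00668). Stc2, stanniocalcin, a secreted protein that holds back the release of insulin-like growth factors, was at 0.594, 0.946 and 2.14 CPM in males and 3.05, 5.06 and 10.1 CPM in females. It differed by -2.20 ± 0.447 on the log2 scale (edgeR adjusted p = 0.0183), with no overlap. Socs2, an inhibitor of growth hormone signalling, was at 3.49 to 9.84 CPM in males and 9.18 to 21.3 CPM in females, with overlap. Its log2 fold change was -1.21 ± 0.275 (edgeR adjusted p = 0.0388), and without female library 4 its edgeR adjusted p was 0.0809. In the list of the growth factor and myostatin axis itself, 0 of 24 genes were called by edgeR (6 at an unadjusted p under 0.05; 1 by DESeq2 and 0 by limma-voom), with a median of -0.15 (-0.058 without the albumin-rich libraries).

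Actc1, the cardiac actin that muscle also makes before birth, had the largest difference among the genes higher in females. Males were at 11.3, 28.4 and 38.9 CPM and females at 51.6, 119 and 305 CPM. The lowest female library was above the highest male library, and the log2 fold change was -2.29 ± 0.420 (edgeR adjusted p = 0.00855). Sdk1, a cell adhesion protein, had a median of 1.95 and a highest value of 3.00 CPM in males, and ran from 4.79 to 9.16 CPM in females. Pclo, a scaffold protein of the presynaptic zone, was at 1.19 to 3.22 CPM in males and 4.01 to 10.0 CPM in females. Their log2 fold changes were -1.77 ± 0.315 and -1.44 ± 0.257 (edgeR adjusted p = 0.00668 for both), and neither overlapped between the sexes.

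Plod2, which hydroxylates collagen lysines, was at 1.64 to 2.66 CPM in males and 3.49 to 3.91 CPM in females. Neu2, a cytosolic sialidase, was at 2.35 to 4.22 CPM in males and 4.44 to 8.17 CPM in females. Both were apart, with log2 fold changes of -0.97 ± 0.181 and -0.92 ± 0.164. Pknox2, a homeobox transcription factor (-0.90), and Fat3, an atypical cadherin (-1.65), were also higher in females, as were Adamts20, a metalloprotease (-1.81), Mn1 (-0.98) and Gng2, a G protein subunit (-0.94).

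**Figure D2:**
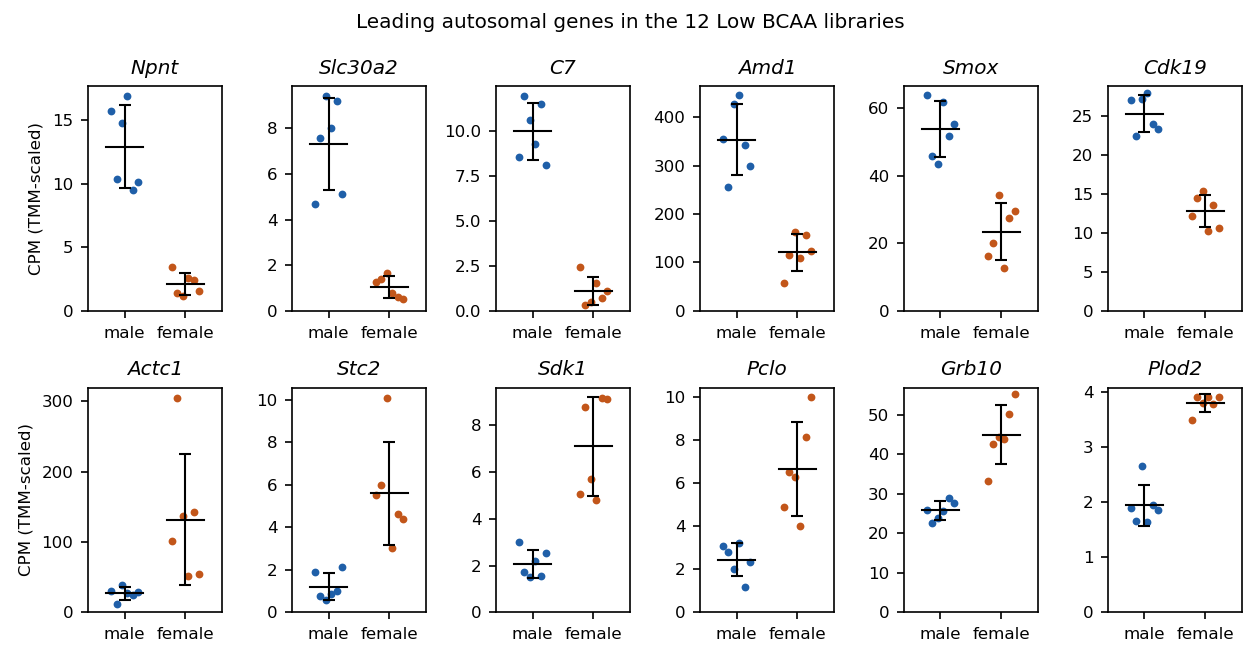
Each point is 1 library's TMM-scaled CPM (vertical, from 0) for 12 leading genes, with the mean and SD over 6 libraries as black bars; males are blue and females orange. In all 12 panels the lowest library of the higher sex is above the highest library of the other, for example 256 against 162 CPM for Amd1.

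Genes of lymphocytes and macrophages mostly lay below 0, which is the female side, and 1 of them passed the test. Cd3e, part of the T cell receptor complex, was at 0.250, 0.429 and 1.07 CPM in males and 0.669, 1.21 and 3.82 CPM in females, with a log2 fold change of -1.91 ± 0.452 (edgeR adjusted p = 0.0468, and 0.0506 without female library 4). It was the 1 called gene of 13 lymphocyte genes tested, all 13 of which lay below 0 with a median of -1.60, beside -0.018 for all autosomal genes. The summed level of these 13 genes ran from 57.2 to 245 CPM in males and from 48.9 to 779 CPM in females, so the groups overlapped, and the male median (96.5 CPM) was above the female one (75.5 CPM), unlike the median of the fold changes. Of 20 macrophage genes 18 lay below 0, with a median of -0.51 (-0.87 without the albumin-rich libraries), and none was called by edgeR, DESeq2 or limma-voom (2 had an unadjusted p under 0.05 in edgeR). Cma1 and Mcpt4, neighbouring genes for proteases of mast cells, were named after their values were seen. Cma1 was at 0.417 to 1.14 CPM in males and 1.54 to 3.93 CPM in females, and Mcpt4 at 0.565 to 1.33 and 1.64 to 3.75 CPM. Their log2 fold changes were -1.73 ± 0.376 and -1.46 ± 0.318 (edgeR adjusted p = 0.0309 for both, and 0.0643 and 0.0652 without female library 4). In whole muscle, fewer cells of a type and less RNA per cell cannot be told apart.

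Liver transcripts were present in every library, at levels that differed widely from library to library. Albumin (Alb) was at 697, 2105, 122, 2590.4, 8.91 and 52.7 CPM in male libraries 1 to 6 and at 319, 117, 2.60, 6.96, 7.89 and 11.1 CPM in female libraries 1 to 6. Male libraries 1, 2 and 4 were the highest, and male library 5 was as low as most females. The summed level of the 15 hepatocyte genes ran from 18.1 to 4885 CPM in males and from 4.27 to 521 CPM in females, and no gene of the list was at 0 in all libraries of either sex. The mean log2 CPM of the 15 genes was 4.11 ± 3.16 (SD, n = 6) in males and 0.144 ± 2.68 (SD, n = 6) in females. That difference of 3.97 did not pass an exact two-sided permutation test (p = 0.0519, adjusted over 6 library measures 0.110). Its unadjusted exact permutation p was 0.0195 without male library 5, 0.0476 without male library 6, 0.0260 without female library 1 and 0.0346 without female library 2. Leaving out any 1 of the other libraries gave an exact permutation p of 0.0671 to 0.0931. All 15 genes lay above 0 in the gene-level fit with a median log2 fold change of 3.88, and 0 of 15 were called by edgeR although all 15 had an unadjusted p under 0.05. DESeq2 called 5 of them and limma-voom 0. Alb itself differed by 3.58 ± 1.40 (edgeR adjusted p = 0.269).

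The other library measures gave no separate result after adjustment. Mitochondrially encoded genes took 26.9% ± 5.25 of counts in males and 20.8% ± 3.89 in females (SD, n = 6 each; exact permutation p = 0.0411, adjusted 0.110). Fragments of ribosomal RNA genes took 0.123% ± 0.0627 in males and 4.27% ± 5.93 in females (exact permutation p = 0.0736, adjusted 0.110), with 3 female libraries, 1, 4 and 6, at 5.83%, 4.07% and 15.3%. Leaving ribosomal, mitochondrial and 7SL RNA genes out of the fit kept all 80 and all 39 calls.

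Liver genes known to differ between male and female liver did not all behave alike: some were nearly absent from 1 sex, and others were highest in the albumin-rich libraries. Mup20, a major urinary protein (a pheromone carrier that male liver makes), was at 56.5, 112, 14.5, 46.1, 0.239 and 2.26 CPM in male libraries 1 to 6. Among the females it was at 0 in libraries 1, 2, 3, 5 and 6 and at 0.414 CPM in library 4, the one that lacks Xist. Female libraries 1 and 2, which held 521 and 255 CPM of the hepatocyte genes, had none, while male library 3, with 275 CPM of them, had 14.5 CPM. Its fitted log2 fold change was 9.05 ± 1.69 (edgeR adjusted p = 0.0101). It was not called without the albumin-rich libraries (6.28, edgeR adjusted p = 0.200) or with the hepatocyte covariate (5.00, edgeR adjusted p = 0.312), and it was 13.48 without female library 4, where all females are at 0 and the fitted value depends on the prior count. Cyp2d9, a steroid hydroxylase of male liver, was at 0.0530 to 22.1 CPM in males and at most 0.0597 CPM in females (8.33 ± 1.45, edgeR adjusted p = 0.00597). Without the albumin-rich libraries it was 5.18 (edgeR adjusted p = 0.189), and with the covariate 4.80 (edgeR adjusted p = 0.0711). Cyp7b1, which hydroxylates oxysterols, was called at 2.94 and had a value of 0.32 without the albumin-rich libraries, and the complement gene C6 went from 1.88, not called, to -0.21. Of 17 genes known as male-biased in liver, 12 had enough counts to be tested. All 12 lay above 0, 6 were called (8 by DESeq2, 0 by limma-voom), and the median was 3.61. Members nearly absent from the females, such as Mup20 and Cyp2d9, passed the count filter through male libraries. Their place above 0 follows in part from that filter and is no separate support. Over all autosomal genes tested, 46.2% lay above 0 and 0.457% were called higher in males, and all 15 hepatocyte genes lay above 0 too. Without the albumin-rich libraries 9 of the 12 lay above 0, 0 were called and the median was 0.75, and with the hepatocyte covariate the median was 1.03.

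Of the genes known for higher levels in female liver, a few were seen mainly in the female libraries with most liver RNA. Cyp3a41a, a cytochrome P450 of female liver, was at 5.58 and 5.39 CPM in female libraries 1 and 2 and at most 0.251 CPM in the other 4. In males it was at 0.0736 CPM in library 1, 0.0312 in library 3 and 0 in the rest, including libraries 2 and 4, which had the most albumin. The difference of -6.57 did not pass the test (edgeR adjusted p = 0.0982). Sult2a1, a sulfotransferase, was at 1.00 and 0.392 CPM in female libraries 1 and 2 and at 0 in all 6 males (-6.19, edgeR adjusted p = 0.189). Others of this list were highest in the albumin-rich males: Cyp4a10, which oxidises fatty acids, was at 164 and 147 CPM in male libraries 2 and 4 and at 14.0 and 7.96 CPM in female libraries 1 and 2 (4.07, edgeR adjusted p = 0.146; 0.82 without the albumin-rich libraries). Cyp17a1 and Acot3 had log2 differences of 3.38 and 2.73, and of 0.15 and -0.16 without those libraries. Of 21 female-biased liver genes, 15 had enough counts to be tested. Their median was 0.19, or -0.021 without the albumin-rich libraries, and the 2 called members were both higher in males. Sult1e1, the estrogen sulfotransferase, was at 0.203 to 1.16 CPM in males and at most 0.167 CPM in females. Trim24, a cofactor of nuclear receptors, was at 35.7 to 49.8 CPM in males and 27.2 to 34.7 CPM in females. Trim24 did not follow the liver RNA among the males. It was at 38.4 CPM in male library 4, with 4885 CPM of the hepatocyte genes, and at 40.9 CPM in library 5, with 18.1 CPM. It was still called without the albumin-rich libraries (0.54, edgeR adjusted p = 0.0294) and with the covariate (0.49, edgeR adjusted p = 0.0136).

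**Figure D3:**
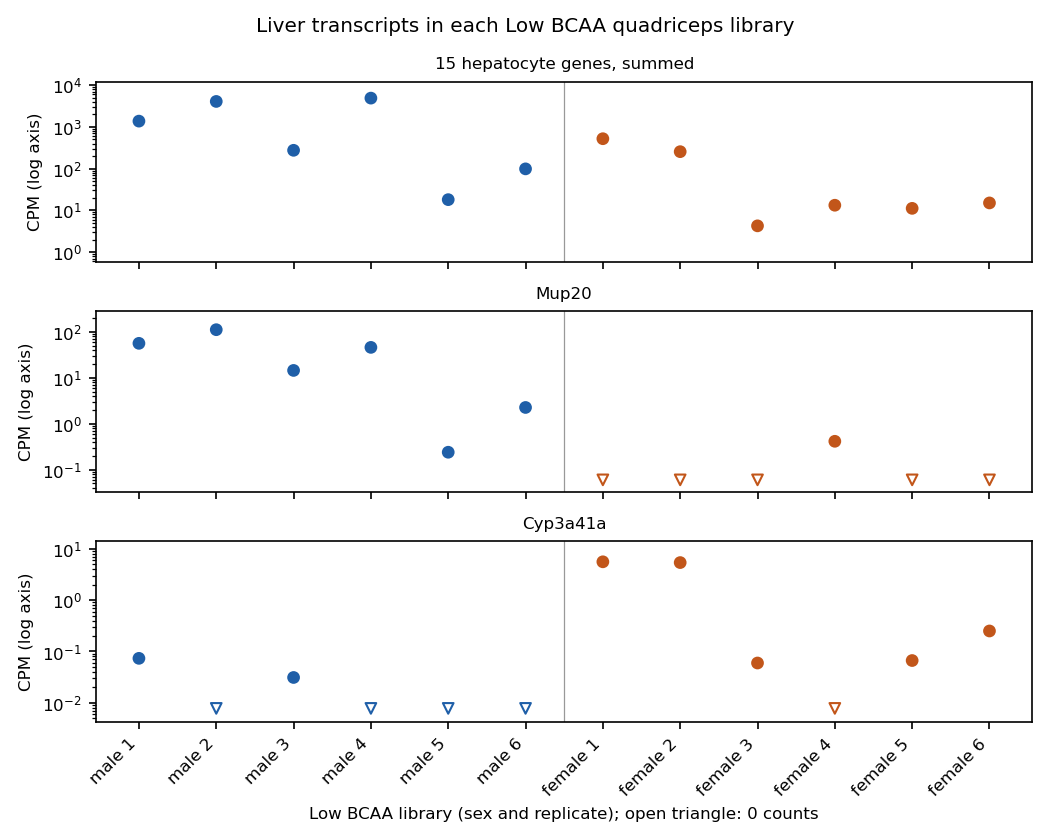
Each point is 1 Low BCAA library (horizontal, by sex and replicate number), and the vertical log axes give the summed CPM of 15 hepatocyte genes, the CPM of Mup20 and the CPM of Cyp3a41a; open triangles mark 0 counts. Mup20 is present in all 6 male libraries, and Cyp3a41a is above 1 CPM only in female libraries 1 and 2.

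Several other genes were higher in males, and they followed the albumin-rich libraries. Cpt1a, the form of carnitine palmitoyltransferase that liver uses to bring fatty acids into mitochondria, was at 43.4, 60.6, 21.2, 89.3, 15.3 and 22.9 CPM in male libraries 1 to 6 and at 9.27 to 21.5 CPM in females. The highest values are again in male libraries 1, 2 and 4. Its log2 fold change was 1.68 ± 0.340 (edgeR adjusted p = 0.0182). When the libraries with over 500 CPM of albumin were left out, which leaves 3 males against 6 females, the value was 0.61 (edgeR adjusted p = 0.457). The change also fell to less than 50% of its log2 size for Ahcy, which breaks down S-adenosylhomocysteine (1.71, then 0.47), Vtn, vitronectin (2.26, then 0.63), Abat, the transaminase of gamma-aminobutyrate (2.28, then 0.50), Lpin2, a phosphatidate phosphatase (1.83, then 0.20), Slc10a1, the bile acid importer (1.97, then 0.26), Pbld1 (2.20, then 0.59) and Slc25a47, a mitochondrial carrier (2.12, then 0.0077).

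In all, 20 of the 80 genes higher in males had less than 50% of their log2 change left without those libraries, and 0 of the 39 genes higher in females did. The median of the 80 went from 1.54 to 1.09 and that of the 39 from -1.21 to -1.13. All 80 and all 39 kept their direction. Calls dropped in that smaller fit, to 27 higher in males (0.148% of 18233 autosomal genes), 25 of them among the 80, and 2 higher in females (0.0110%), Pclo and 2310039L15Rik. Npnt (2.46), Slc30a2 (2.95), C7 (3.21), Cdk19 (0.98), Pde11a (2.29) and Amd1 (1.57) were still called with changes of nearly the same size, while Smox (1.12) was not (edgeR adjusted p = 0.123). With the hepatocyte level as a covariate, 34 genes (0.194%) were higher in males, 28 of them among the 80, and 17 (0.0972%) higher in females, 10 of them among the 39.

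Most genes of the fuel oxidation lists lay on the male side of 0, and 1 of them was called. Over all autosomal genes tested, 46.2% lay on that side and 0.457% were called higher in males. Of 34 genes of fatty acid oxidation, 32 lay above 0 with a median of 0.49, and Cpt1a was the 1 called. The median was 0.46 without the albumin-rich libraries and 0.024 on the Control diet. Ehhadh, a peroxisomal enzyme of the pathway, was at 12.2 to 126 CPM in males and 8.24 to 36.9 CPM in females, and its difference of 1.92 did not pass (edgeR adjusted p = 0.0661). Of 76 oxidative phosphorylation genes 61 lay above 0 (median 0.10), of 16 genes of the TCA cycle 15 did (median 0.17), and of 25 genes of branched-chain amino acid breakdown 21 did (median 0.11). Without the albumin-rich libraries these medians were 0.30, 0.33 and 0.11. None of these 3 lists had a called gene by edgeR, DESeq2 or limma-voom, and 1, 0 and 3 of their genes had an unadjusted p under 0.05. Bcat2, the transaminase that starts the breakdown of these amino acids in muscle, was at 12.7 to 25.3 CPM in males and 18.1 to 24.3 CPM in females (-0.12 ± 0.150). Bckdhb, a subunit of the dehydrogenase of the next step, was at 11.2 to 20.5 and 11.4 to 15.4 CPM (0.06 ± 0.120).

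No fibre type gene was called, and 1 atrophy gene was. Myh4, the myosin of the fastest fibres, was at 35638, 46597 and 64652 CPM in males and 23503, 48393 and 70728 CPM in females (-0.019 ± 0.226). Myh7, the slow myosin, ran from 0.123 to 259 CPM in males and from 0.147 to 1521 CPM in females, so libraries of 1 sex differed more than the sexes did. The 15 slow fibre genes had a median of -0.59, which turned to 2.06 without female library 4 and was -0.37 without the albumin-rich libraries, and 0 were called by edgeR, DESeq2 or limma-voom (1 at an unadjusted p under 0.05). Fbxo32 and Trim63, ubiquitin ligases of atrophy, had log2 differences of -0.00014 ± 0.486 and -0.56 ± 0.742. These differences average females that lay on both sides of the males. Fbxo32 was at 2204, 2435 and 2899 CPM in female libraries 1 to 3 and at 351, 599.5 and 299.7 CPM in libraries 4 to 6, against 871 to 2138 CPM in the males, and Trim63 ran from 350.1 to 1223 CPM in the males, again between the 2 sets of females. Cdkn1a, Gadd45a and Ctsl were also higher in female libraries 1 to 3 (35.7 to 57.5, 31.8 to 60.1 and 272 to 318 CPM) than in 4 to 6 (3.05 to 6.84, 10.0 to 11.2 and 65.3 to 92.1 CPM). Dbp, a clock output gene, ran the other way, at 1.91 to 2.09 CPM in libraries 1 to 3 and 23.6 to 34.1 CPM in 4 to 6, with every male between the 2 sets and at most at 7.78 CPM. The labels give no reason to divide the females in this way, the split was seen in the values, and it was not tested. In the atrophy and proteolysis list 1 of 19 genes was called, Fbxo21, a ubiquitin ligase subunit that was higher in males (1.22 ± 0.264, edgeR adjusted p = 0.0304) and at 0.51 without the albumin-rich libraries.

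Other named genes of hormone and growth signalling did not pass either. Mstn, myostatin, which limits muscle growth, was at 28.3, 37.3 and 45.5 CPM in males and 30.3, 68.8 and 108 CPM in females (-0.90 ± 0.271, edgeR adjusted p = 0.121). Esr1, the estrogen receptor, was at 13.0 to 26.1 CPM in males and 18.2 to 48.2 CPM in females (-0.72 ± 0.221, edgeR adjusted p = 0.126). Both genes also divided the females. Mstn was at 78.5 to 108 CPM in female libraries 1 to 3 and at 30.3 to 59.0 CPM in 4 to 6. Esr1 ran the other way, at 18.2 to 22.1 CPM and then 38.9 to 48.2 CPM, and this was not tested. Igf1 was at 10.3 to 37.5 and 6.71 to 34.2 CPM (0.081 ± 0.409). Irs1, the insulin receptor substrate, was at 48.7 to 87.4 CPM in males and 84.9 to 147 CPM in females, overlapping only at the edge (-0.76 ± 0.231, edgeR adjusted p = 0.122).

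**Figure D4:**
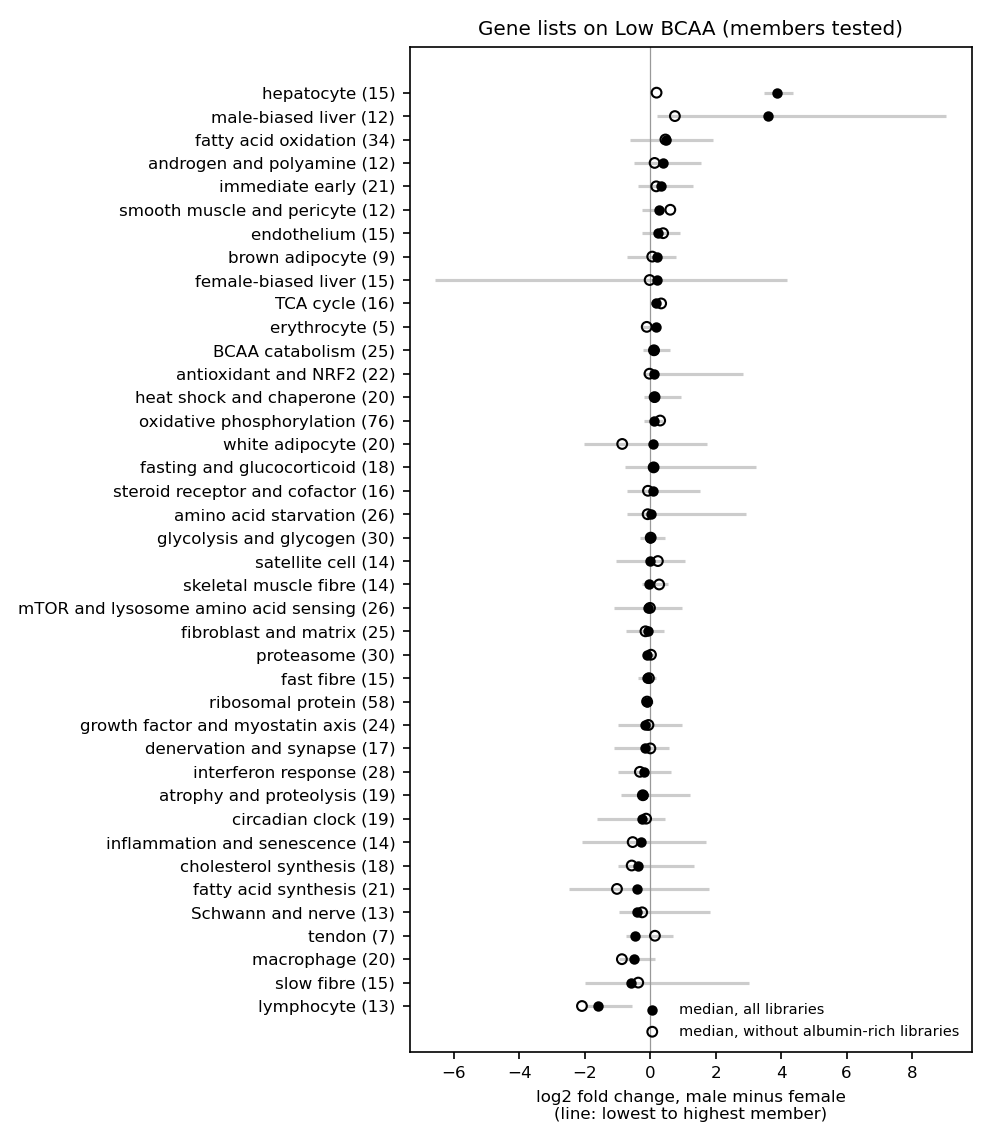
Each row is 1 of the 40 gene lists with the number of members tested; the filled point is the median log2 fold change, male minus female, over all libraries, the open point the median without the albumin-rich libraries, and the grey line runs from the lowest to the highest member. The hepatocyte median is 3.88 and then 0.19, and that of fatty acid oxidation 0.49 and 0.46. Libraries were left out for their albumin, which is 1 of the 15 hepatocyte genes, so the fall of the hepatocyte median follows from that choice.

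The same contrast on the Control diet uses other libraries, and it is set beside these values. The number in the description labels was 1 in all Control females and 2 or 3 in the Control males. Within Control, number and sex therefore cannot be told apart either. Across the diets, number 2 was held by some Control males and by some Low BCAA females, which differ in diet as well as sex. For genes called on both diets, the part of the number was not tested. Within each sex the numbers also differed between the diets. On Control, 45 autosomal genes were higher in males (0.257%) and 19 higher in females (0.109%). Of the genes higher in males, 28 were called on both diets, which is 35.0% of the Low BCAA list and 62.2% of the Control list. Of those higher in females, 8 were called on both, which is 20.5% and 42.1%. All 45 and all 19 Control genes had the same direction on Low BCAA, and 68 of the 80 and 37 of the 39 Low BCAA genes had the same direction on Control. The shared genes included Npnt (2.93 on Control), Slc30a2 (3.05), C7 (3.78), Amd1 (2.07), Smox (1.32), Neu2 (-0.99) and Plod2 (-0.98).

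The median log2 fold change on Control of the 80 genes was 0.55 and of the 39 it was -0.58, and the difference between the diets was not called for any gene. The interaction test found 0 autosomal genes at an adjusted p under 0.05 (0%; edgeR; smallest adjusted p = 0.460), with 1041 at an unadjusted p under 0.05, which is 5.95% of those tested. DESeq2 called 6 (Serpind1, Gm45837, Ces2e, Lars2, AY036118 and CT010467.1) and limma-voom 0. Of the 119 called genes, 52 had an unadjusted interaction p under 0.05. The 119 were picked for their difference on Low BCAA, which is also a part of the interaction. A larger share and smaller Control medians can follow from that choice alone, so neither can be read as an effect of diet. Cpt1a was 1.68 on Low BCAA and 0.24 on Control, and the difference of 1.44 ± 0.472 had an edgeR adjusted p of 0.460. Sdk1 was -1.77 and -0.38, a difference of -1.39 ± 0.434 with the same edgeR adjusted p.

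The 6 named genes with the smallest interaction p were Dio1, the deiodinase of thyroid hormone (6.95 ± 1.63), Ces2e, a carboxylesterase (6.09 ± 1.47), Slc10a1 (2.65 ± 0.647), Lars2 (-10.85 ± 2.70), Aqp8, a water channel (5.90 ± 1.47), and Slc31a2, a copper transporter (-0.80 ± 0.200). Dio1, Ces2e, Slc10a1 and Aqp8 are known from liver, and the hepatocyte list had a median of 3.88 on Low BCAA and -0.89 on Control. Lars2 was at 12398, 8576 and 27189 CPM in female libraries 1, 4 and 6, those with the most ribosomal fragments, at 42.4 to 277 CPM in the other 3 females, and at 22.0 to 63.4 CPM in males. On Control, Lars2 was at 19.8, 5725 and 83675 CPM in males (lowest, median, highest) and 29.7, 63.6 and 9737 CPM in females, a log2 difference of 3.38. Slc31a2 was at 4.24 to 5.59 CPM in males and 6.29 to 7.06 CPM in females on Low BCAA, without overlap. The part of liver RNA and ribosomal fragments in these values was not tested beyond the fits given above.

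**Figure D5:**
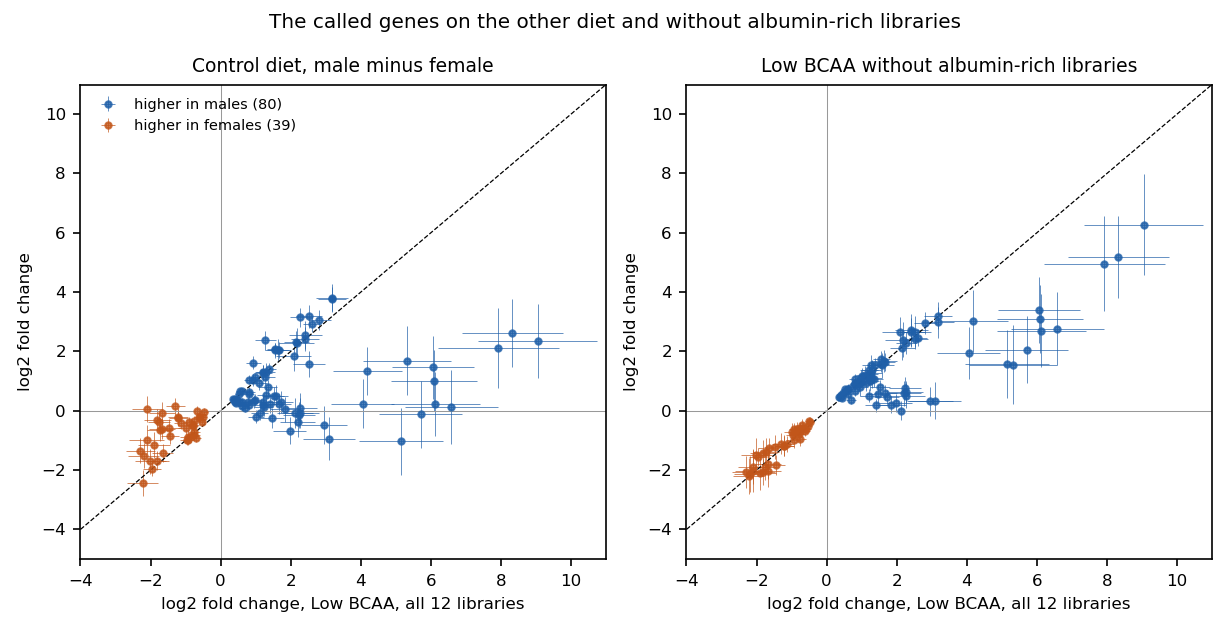
Each point is 1 of the 119 called genes with its log2 fold change, male minus female, over the 12 Low BCAA libraries (horizontal) and the value on the Control diet (left panel) or on Low BCAA without the albumin-rich libraries (right panel); bars are SE, blue is higher in males, orange higher in females, and the dashed line marks equal values. Genes with horizontal values above 4 lie below the line in both panels, and all 119 stay on their side of 0 in the right panel.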

How the data were processed

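RNA sequencing of quadriceps gave 24 libraries in 4 groups of 6, numbered within a group in the order of listing. The authors deposited expected counts per gene in a single table named for RSEM, which divides shared reads between genes by a model; 88.4% of the values are whole numbers. The submitters' processing notes name mm9 as the genome build. No source used here gives the aligner or the annotation. The expected counts were rounded. Chromosomes came from the GENCODE M21 annotation by gene identifier, 279 identifiers were not placed, and no gene positions are printed beside the promoter windows. Lists, comparison and genes were chosen with earlier results of these data known.

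Genes were filtered with filterByExpr by group (18098 kept, 99.93% of counts) and scaled by TMM. The fit in edgeR 4.0.16 (R 4.3.3) used all 24 libraries, 1 coefficient per group and 20 residual degrees of freedom; the common coefficient of variation was 35.2%. Contrasts were male minus female on Low BCAA, the same on Control, and their difference. P-values are two-sided. Alternatives used DESeq2 1.42.0, limma 3.58.1, other factors, filters and library sets. On simulated counts of 17823 genes, the test found 36% of 2-fold and 87.8% of 4-fold changes, and 0.813% of calls were false. Each gene was drawn independently, with the same mean in all libraries apart from the set changes. The simulation thus held no liver RNA shared by some libraries and no split within a sex. Its shares do not carry over to the calls made here.

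Genes were named by a rule (126 genes): the 12 largest called changes in each direction at a mean log2 CPM (prior count 2) of at least 1, the 6 smallest p among genes without overlap in each direction, 2 members of each of 40 lists, 21 fixed genes and the 6 smallest interaction p. Predicted genes were left out of the rule. Other autosomal genes named in the report were chosen after their values were seen: Amd2, Amd-ps3, Hpgd and its neighbours, 2310039L15Rik, 4 genes called by DESeq2 for the difference between diets, Cma1, Mcpt4, Cyp3a41a, Sult2a1, Cyp7b1, C6, Cyp4a10, Cyp17a1 and Acot3. Promoters, motif counts and 50-base matches used RefSeq and GENCODE sequences with Python 3.11.15, pandas 2.3.3, numpy 2.4.6 and matplotlib 3.10.9.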

Additional observations from a re-analysis of the deposited data

Results flagged for a closer look

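In 274 sets of 6 Low BCAA libraries of 1 sex, the gap between the most extreme library and its nearest neighbour was divided by the whole range of the 6. The values were log2 CPM (prior count 2) of named and X-linked genes, and the 6 library measures. A share above 0.625 marks a library far from the others, and chance gives about 1 in 20. There were 23.

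The female library that lacks Xist was the extreme one for 3 X-linked genes: Xist had a share of 0.976, Kdm5c 0.654 and Eif2s3x 0.700, each as the lowest. The same library was the only female one with Mup20 (1.00) and the highest for Cox7a1, a respiratory chain subunit (0.795; 84.1 CPM against 36.7 to 43.5), for Atp5l (0.635; 67.6 CPM) and for the mitochondrial share of counts (0.641; 28.1%). It was the lowest for Ngfr, the low-affinity neurotrophin receptor (0.633; 0.621 CPM).

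Female library 1, with the most liver RNA of the females, was the highest for Ehhadh (0.845; 36.9 CPM), Hsd17b11 (0.633; 7.14 CPM) and Sult1e1 (1.00; 0.167 CPM, with 0 in the other 5), and the lowest for Plod2 (0.704; 3.49 CPM). Among the other females, library 5 was the highest for Il7r (0.711; 3.16 CPM), library 2 for Pdgfra (0.641; 48.2 CPM), and library 3 was the lowest for Gbp2 (0.663; 3.64 CPM).

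Among the males, library 1 was the highest for Cldn5, an endothelial junction protein (0.756; 16.3 CPM), and for Lyz1 (0.629; 2.55 CPM), and library 2 for Rsad2 (0.630; 10.9 CPM). Library 3 was the highest for Plod2 (0.660; 2.66 CPM) and Rps2 (0.672; 165 CPM) and the lowest for Ngfr (0.885; 0.406 CPM). Library 4 was the lowest for Cdh5, endothelial cadherin (0.801; 50.7 CPM), and library 6 the highest for Cry1 (0.628; 7.27 CPM). Of these genes Plod2, Mup20 and Sult1e1 were called between the sexes.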

How the results depend on the processing

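The number of genes higher in males was 80. It was 353 with DESeq2, 44 with limma-voom, 35 with quality weights added, 16 with only the 12 Low BCAA libraries, 34 with the hepatocyte level as a covariate, 27 without the albumin-rich libraries, 204 at an adjusted p under 0.1, and 35 to 183 when 1 library was left out. For genes higher in females (39) the same settings gave 116, 21, 13, 5, 17, 2, 86 and 13 to 69, and a minimum of 10 counts gave 20. All 80 and all 39 were among the DESeq2 calls. The difference between diets gave 0 calls under every setting except DESeq2, with 6, and DESeq2 without the albumin-rich libraries, with 3; the latter was added after seeing the data. The hepatocyte level difference of 3.97 ran from 3.32 to 4.91 when 1 library was left out. No paired analysis was possible because the replicate numbers only follow the order of listing. The cause of these shifts was not tested, except that fewer libraries leave fewer degrees of freedom.

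Over the 126 named genes, 2541 values kept direction and side of the threshold, 232 kept the direction only and lost the call, 30 gained one and 75 changed sign. Without the albumin-rich libraries the log2 fold change was -0.082 for Gsta3, -0.13 for Hsd17b11, -0.26 for Cbs, -0.50 for Fads2, -0.25 for Nrn1, -0.31 for Alb, -0.75 for Pck1, 0.039 for Mkx, -0.085 for Bckdhb, 0.49 for Myh2, 0.0059 for Fkbp5, -0.82 for Igf1 and 0.056 for Fbxo32. With the hepatocyte covariate it was -0.14 for Ces2e, -0.35 for Fads2, -0.076 for Nrn1, -0.44 for Alb, -0.16 for Aqp8, -0.095 for Pck1, 0.045 for Mkx, -0.054 for Bckdhb and -0.51 for Igf1. Alb set which libraries were left out and is part of the covariate, so its fall in both fits follows from those choices. With limma-voom the log2 fold change was 0.34 for Myh7, 0.092 for Cdkn1a, 0.59 for Trim63, 0.26 for Fkbp5, -0.17 for Myh1, 0.036 for Myh4 and 0.50 for Fbxo32, and with quality weights 0.85 for Myh7, 0.31 for Trim63, 0.57 for Myh2, 0.18 for Fkbp5, -0.064 for Igf1, 0.012 for Myh4 and 0.37 for Fbxo32. Myh4 was 0.012 with a minimum of 10 counts and 0.0082 with only the 12 libraries. Fbxo32 was 0.029 in both of those, 0.0085 with DESeq2 or its size factors, and 0.0072 with a minimum of 1 CPM in 6 libraries. Leaving out 1 library gave -1.06 to 0.23 for Adipoq, -0.20 to 0.0043 for Bcat2, -0.046 to 0.15 for Bckdhb, -0.21 to 0.31 for Fbxo32, -0.38 to 0.10 for Fkbp5, -0.12 to 0.29 for Igf1, -0.13 to 0.73 for Myh1, -0.95 to 1.39 for Myh2, -0.16 to 0.12 for Myh4, -3.30 to 4.72 for Myh7, -0.64 to 0.07 for Myl6b and -111 to 510 for the difference in genes detected. Genes below about 1 CPM rest on few counts. On simulated counts the test found 36% of 2-fold changes, and smaller changes were not simulated.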

Other observations

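Medians here are log2 fold changes, male minus female, followed by the median without the albumin-rich libraries. Over all autosomal genes tested, 46.2% lay above 0. Of 15 endothelial genes 14 lay above 0 (median 0.24, then 0.39), and of 12 genes of smooth muscle and pericytes 10 did (0.26, then 0.61). Of 13 Schwann and nerve genes 11 lay below 0 (-0.42, then -0.25), and of 58 ribosomal protein genes 46 did (-0.11, then -0.10). Of 30 proteasome genes 27 lay below 0 (-0.089), but without the albumin-rich libraries 22 lay above it (0.019).

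Medians that turned without those libraries were those of white adipocyte (0.087, then -0.86), erythrocyte (0.16, then -0.11), satellite cell (-0.022, then 0.23), tendon (-0.46, then 0.14), skeletal muscle fibre (-0.041, then 0.27), denervation (-0.16, then 0.00029), steroid receptor (0.08, then -0.073), amino acid starvation (0.0098, then -0.083), glycolysis (-0.013, then 0.011) and antioxidant genes (0.11, then -0.026). The others kept their sign: brown adipocyte (0.20, then 0.058), fibroblast and matrix (-0.071, then -0.15), fast fibre (-0.093, then -0.043), mTOR and lysosome (-0.063, then -0.012), fasting and glucocorticoid (0.086, then 0.10), fatty acid synthesis (-0.41, then -1.02), cholesterol synthesis (-0.39, then -0.57), heat shock (0.11, then 0.13), immediate early (0.34, then 0.18), circadian (-0.24, then -0.13), interferon (-0.19, then -0.32) and inflammation genes (-0.28, then -0.54). Leaving out female library 4 alone turned the medians of tendon (0.27), satellite cell (0.049), skeletal muscle fibre (0.012), denervation (0.015), amino acid starvation (-0.018) and fasting genes (-0.066).

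None of the lists in these paragraphs had a gene called by edgeR or limma-voom with all libraries. In edgeR, 7 of 26 amino acid starvation genes, 6 of 16 steroid receptor genes and 5 of 21 fatty acid synthesis genes had an unadjusted p under 0.05, and DESeq2 called 2, 0 and 1 of them.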
